A study of Mus musculus with 6 samples.

Results

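The Oasl2-Oasl1 locus is a 60 kb window on mouse chromosome 5 that holds Oasl2 and, above it in coordinates, Oasl1. Coordinates are those of build mm9. The outermost members began at 115346807 and ended at 115392421. By RefSeq's gene order the long non-coding RNA gene Gm13822 lies between them and 2210016L21Rik follows Oasl1. Spans of about 15 kb stand for each gene, rounded to whole kb, because no mm9 annotation was used: the Oasl2 span starts inside p300 site 1 and the Oasl1 span inside p300 site 4, both described further on. The window's members were all deposited peaks of p300, PU.1 and mono-methylated histone H3 lysine 4 (H3K4me1) within it, 26 of 257266 peaks in 5 lists. They comprised 7 of 12237 p300 peaks after lipopolysaccharide (LPS), 1 of 12421 p300 peaks in untreated cells, 6 of 74365 PU.1 peaks after LPS, 5 of 73500 PU.1 peaks in untreated cells and 7 of 84743 H3K4me1 peaks. Overlapping p300 peaks of the 2 conditions were merged into 8 sites of 19879 in the genome, and PU.1 peaks into 6 sites of 87955. The members were thus chosen by peak calls made on the same reads that are counted below, so their counts and folds are a description and carry no test of their own.

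Oasl1 and Oasl2 belong to the oligoadenylate synthetase family, a group of antiviral genes that interferon switches on. Several OAS enzymes sense double-stranded RNA and make short oligoadenylates that activate RNase L. In the mouse, Oasl2 has kept synthetase activity, while Oasl1 has lost it and is known to restrain translation of Irf7 mRNA. In macrophages LPS acts through the receptor Tlr4, and the interferon beta that follows induces such genes. p300 is a histone acetyltransferase found at active enhancers and promoters, PU.1 is the ETS-family factor that the macrophage lineage needs, and H3K4me1 marks enhancers.

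Chromatin immunoprecipitation with sequencing (ChIP-seq) had been done in primary macrophages grown for 7 days from bone marrow of female Fvb mice. p300 and PU.1 were measured in cells given LPS, the glycolipid of the Gram-negative outer membrane, at 10 ng/ml for 2 h, and in cells without treatment. H3K4me1 and input DNA (chromatin that was not precipitated) were measured in untreated cells. p300 had 2 biological replicates per condition, and every other measurement had 1 library, 8 in all. The sources used here give neither the age nor the number of mice. No RNA was measured, so neither expression of the genes nor the cell type was checked.

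Because the strongest p300 site of the window lay at the lower edge of the Oasl1 span, the promoter letters of both genes are shown first, from 250 bases before to 50 bases after each gene start. They come from RefSeq on build GRCm38.p6, plus strand, at chr5:114922990-114923289 for Oasl1 and chr5:114896684-114896983 for Oasl2. These coordinates belong to another build than the peaks and cannot be set against them. Capitals mark 3 matches to AANNGAAA in Oasl1 and 1 match to TATAAA in Oasl2, on either strand.
Oasl1 promoter: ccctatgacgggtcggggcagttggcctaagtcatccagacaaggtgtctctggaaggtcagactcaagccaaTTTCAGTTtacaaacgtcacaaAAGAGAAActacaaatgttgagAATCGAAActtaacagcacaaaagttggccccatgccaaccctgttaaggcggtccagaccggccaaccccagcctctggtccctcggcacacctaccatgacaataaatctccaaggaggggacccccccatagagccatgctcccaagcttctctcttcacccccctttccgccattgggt
Oasl2 promoter: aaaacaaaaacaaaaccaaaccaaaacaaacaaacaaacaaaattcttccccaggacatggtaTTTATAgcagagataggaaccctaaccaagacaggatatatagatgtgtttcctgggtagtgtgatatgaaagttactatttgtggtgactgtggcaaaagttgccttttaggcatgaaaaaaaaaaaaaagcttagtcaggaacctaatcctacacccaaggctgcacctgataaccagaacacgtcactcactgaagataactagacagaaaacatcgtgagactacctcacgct
The Oasl1 promoter held 53% G or C and the Oasl2 promoter 38.7%.

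GAAANNGAA, the core of the interferon-stimulated response element, was found on neither strand of either promoter. It occurred in 8.56% of 32851 promoters of the same length. Among other family members in the table it was present in Oas1a, Oas1c, Oas1g and Oas3, so 4 of 6 family promoters held it, and Oas1b and Oas2 were not in the table. Of 16 other interferon-stimulated genes listed, 10 were in the table, and 7 of these held it (Gbp2, Ifih1, Ifit1, Ifit3, Isg15, Rsad2 and Stat2), against 0 of 5 constitutive genes. The shorter AANNGAAA overlaps that core wherever an A follows it, and was added after the promoters had been read. It was present in 23.9% of all promoters and in 5 of the 6 family promoters, Oasl1 included, in 7 of the 10 other interferon-stimulated genes and in 0 of 5 constitutive ones. These were the same genes that held GAAANNGAA, with Oasl1 alone added, so the counts are not a separate pattern. The 3 matches of Oasl1 began at positions -177, -155 and -133 from the gene start, and 3 or more matches occurred in 1.12% of promoters. Both the motif and this cut-off were taken from Oasl1 itself, so nothing is read from that share. The NF-kB core GGANNTTCC, in 4.26% of promoters, and the PU.1 core GAGGAAGT, in 3.2%, had no match in either gene. TATAAA occurred in 13.6% of promoters and, within the family, in Oasl2 alone, at position -187 on the minus strand.

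The libraries held 5744811 to 7828655 reads of 36 bp, of which 74.2% to 97% were distinct in position and strand, and distinct reads were counted. The p300 replicates differed in enrichment: LPS replicates 1 and 2 had 2.31% and 5.49% of their reads in the LPS p300 peaks, and untreated replicates 1 and 2 had 1.44% and 6.20% in the untreated ones, against 0.872% to 0.875% for input. Normalised reads, which divide by library sizes scaled over p300 sites, are therefore given beside plain reads. After this scaling untreated replicate 1 lay above untreated replicate 2 at 8 of 8 sites of the window. In reads per 1000000 distinct reads of a library (RPM) it lay below replicate 2 at 7 of 8. The part of this difference in the results was not tested.

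After LPS 7 p300 peaks were called in the window, and 0 of 7 overlapped a p300 peak of untreated cells, while the single untreated peak overlapped none called after LPS. Non-overlap was common in the genome, where 38.2% of LPS p300 peaks overlapped an untreated one and 38.1% of untreated peaks an LPS one, so nothing particular to the locus is read from it. Both LPS libraries lay above both untreated libraries at 6 of 8 sites, against 26.9% of all 19727 tested sites, and at the same number in RPM. limma voom, at an adjusted p of 0.05 over all sites, called 4 of the 8 higher after LPS, against 1.97% of all sites. The rule had chosen the sites on these p300 reads, so nothing is read from either count. The median log2 fold change was 1.95 over the 8 sites, 0.00 over all sites (quartiles -0.89 and 1.14), and 1.42 over the 7507 sites with a peak in the LPS list alone (0.89 and 2.01).

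**Figure D1:**
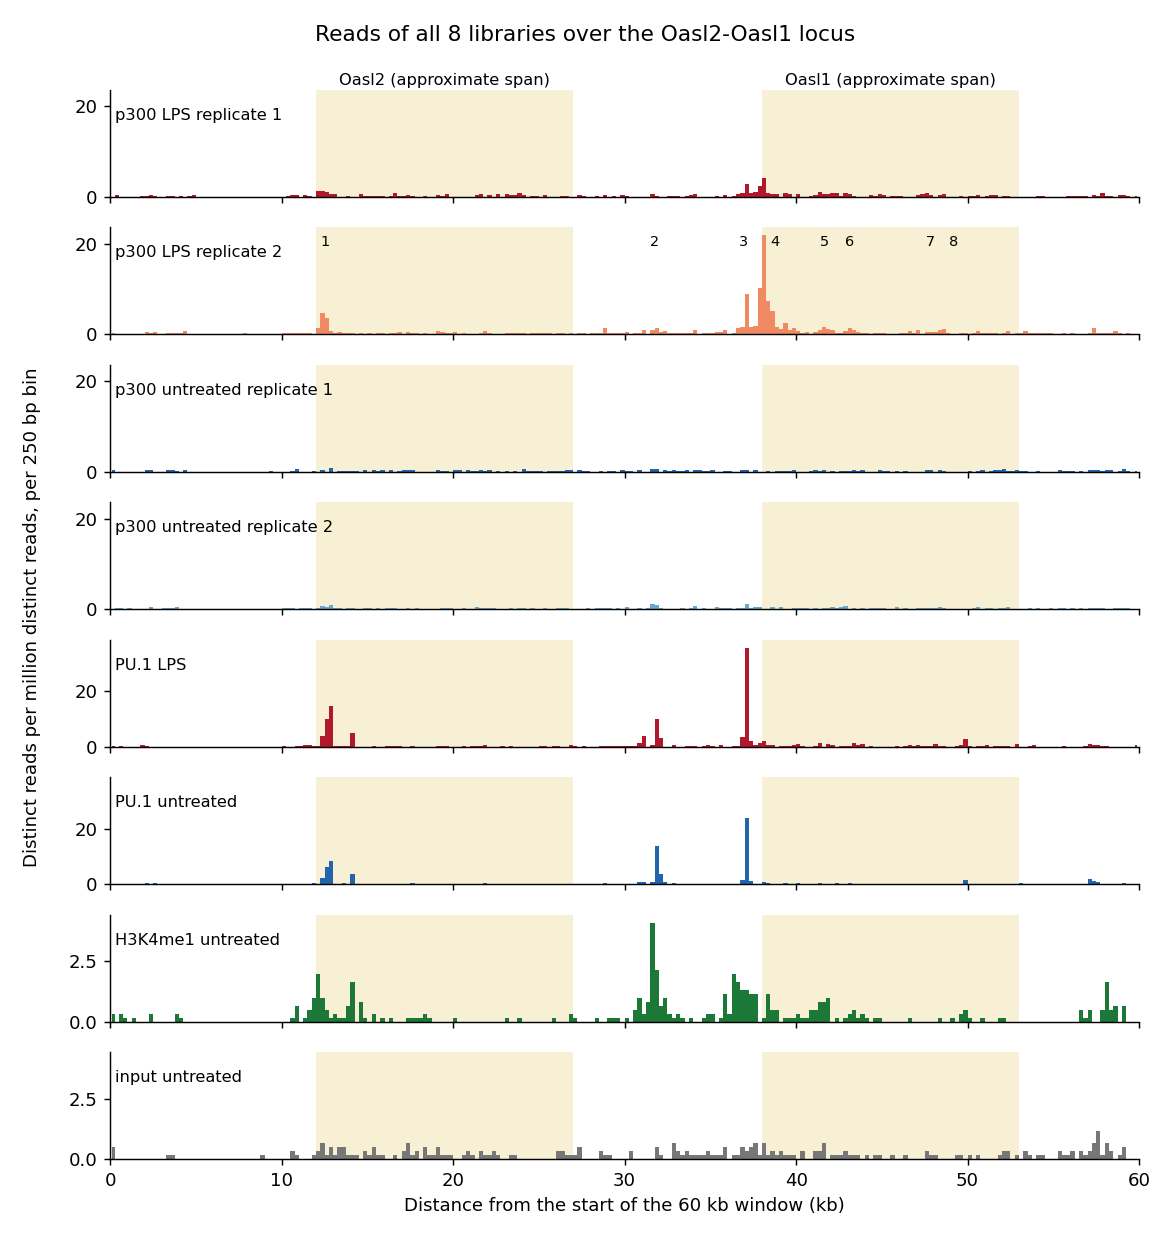
Distinct reads in RPM in bins of 250 bp along the 60 kb window, with a panel for each of the 8 libraries, LPS over untreated for each factor, and p300 sites numbered 1 to 8. Shading marks the approximate spans of Oasl2 and Oasl1. The p300 signal of both LPS libraries is highest at site 4, where the untreated libraries show no peak.

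Site 4 was the largest of them. It ran from 115372500 to 115375029, 2530 bp, and covered the lower edge of the Oasl1 span, the end at which Oasl1 starts, since RefSeq places it on the plus strand. LPS replicates 1 and 2 had 60 and 313 reads there, against 10 and 14 reads in untreated replicates 1 and 2. All LPS values lay far above all untreated values, and LPS replicate 2 was much the highest. In normalised reads the mean was 146 ± 82.9 after LPS and 13.3 ± 7.51 in untreated cells (SD, n = 2 each), a log2 fold change of 3.54 ± 0.61 (SE of limma voom, whose variance is common to all sites). Untreated p300 was no higher than input: 1.56 and 2.37 RPM in the untreated libraries, beside 2.97 RPM in input. The authors' caller score of the peak, 1872.55, ranked 18 of 12237 in the LPS list, its width ranked 51, and its fold ranked 94 of 19727 sites.

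Within site 4 the reads were concentrated in a narrow stretch. The summit after LPS was at 115373027, with 167 reads within 100 bp. The 200 bp bin that lay 700 bp below the site's centre held 22 and 132 reads in the LPS libraries, against 0 and 0 in the untreated ones. Reads came from both strands, 152 plus and 161 minus in LPS replicate 2. A lower shoulder extended to about the site's centre, with 41 reads of LPS replicate 2 in the bin at -300 bp, 16 at -100 bp and 8 at 100 bp.

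**Figure D2:**
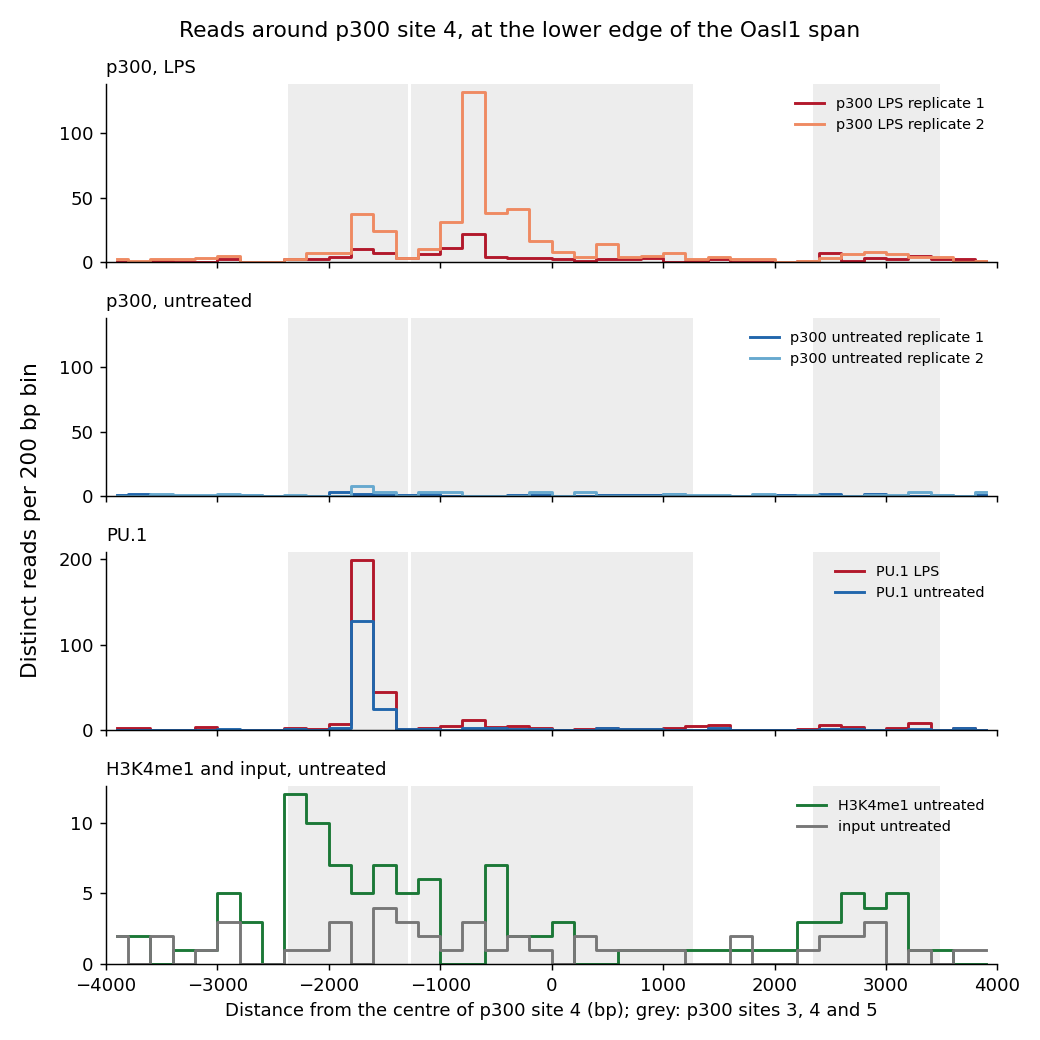
Distinct reads per 200 bp bin by distance from the centre of p300 site 4, with p300 after LPS, p300 in untreated cells, PU.1, and H3K4me1 with input in separate panels, and sites 3, 4 and 5 in grey. The highest p300 bin, 700 bp below the centre with 132 reads of LPS replicate 2, lies about 1 kb from the highest PU.1 bin, at -1700 bp with 199 reads after LPS and 128 in untreated cells.

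Site 3 lay 24 bp below site 4, from 115371395 to 115372475, between the genes. p300 had 28 and 78 reads there in the LPS libraries, against 6 and 12 in the untreated libraries. The normalised mean was 45.7 ± 7.28 after LPS and 8.99 ± 3.06 in untreated cells (SD, n = 2 each), with a log2 fold change of 2.50 ± 0.58 (SE). Unlike site 4, site 3 overlapped PU.1 peaks of both conditions and an H3K4me1 peak. Its p300 summit after LPS, at 115372100, lay 22 bp from the PU.1 summit.

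Site 1, from 115346944 to 115348074, was the site at the lower edge of the Oasl2 span and likewise overlapped PU.1 peaks of both conditions and H3K4me1. It had 24 and 60 p300 reads in the LPS libraries, against 8 and 15 in the untreated libraries, and the groups did not overlap. The normalised mean was 37.0 ± 3.08 after LPS and 11.7 ± 4.48 in untreated cells (SD, n = 2 each), with a log2 fold change of 1.83 ± 0.56 (SE). Here the p300 summit, 115347448, and the PU.1 summit were 326 bp apart. The remaining 13.429 kb of the Oasl2 span outside all peaks held 58 and 64 p300 reads after LPS, against 59 and 35 in untreated cells, and these overlapped, also in normalised reads (84.0 and 41.7 after LPS, 110 and 19.9 in untreated cells), while in RPM they did not (10.5 and 11.0 after LPS, 9.18 and 5.91 in untreated cells).

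Sites 5 and 6 lay inside the Oasl1 span. Site 5, from 115376111 to 115377250, had 18 and 29 reads in the LPS libraries, against 6 and 5 in the untreated ones, and the groups did not overlap. The normalised mean was 22.5 ± 5.07 after LPS and 7.00 ± 5.88 in untreated cells (SD, n = 2 each), with a log2 fold change of 2.52 ± 0.62 (SE). With sites 1, 3 and 4 it made up the called sites. Its untreated values, 0.933 and 0.845 RPM, were also below the 1.32 RPM of input, as at no other site but site 4. Site 6, from 115377595 to 115378655, had 10 and 21 reads after LPS, against 7 and 7 in untreated cells, a log2 fold change of 1.43 ± 0.60 that did not pass. Its normalised values nearly met, with 14.5 and 13.7 after LPS and 13.0 and 3.98 in untreated cells.

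Sites 7 and 8 were weak. Site 7, from 115383149 to 115383515, had 2 and 8 reads after LPS, against 2 and 4 in untreated cells (log2 fold change 0.78 ± 0.95), and the libraries overlapped. Site 8 began 14 bp further on and ended at 115383791, with 3 and 8 reads after LPS, against 1 and 1 in untreated cells (2.06 ± 1.20). Neither passed the test. Of the site 8 reads, 3 and 7 in the LPS libraries were on the plus strand, against 0 and 1 on the minus strand, while at the other sites both LPS libraries had reads on both strands.

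Site 2 differed from the rest. It ran from 115366472 to 115366990, between the genes, and carried the untreated p300 peak, with a caller score of 76.25. It had 4 and 13 reads after LPS, against 8 and 12 in untreated cells, a log2 fold change of -0.11 ± 0.63 (SE), and the libraries overlapped in plain and normalised reads. The change at this site could not be told from the replicate spread.

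**Figure D3:**
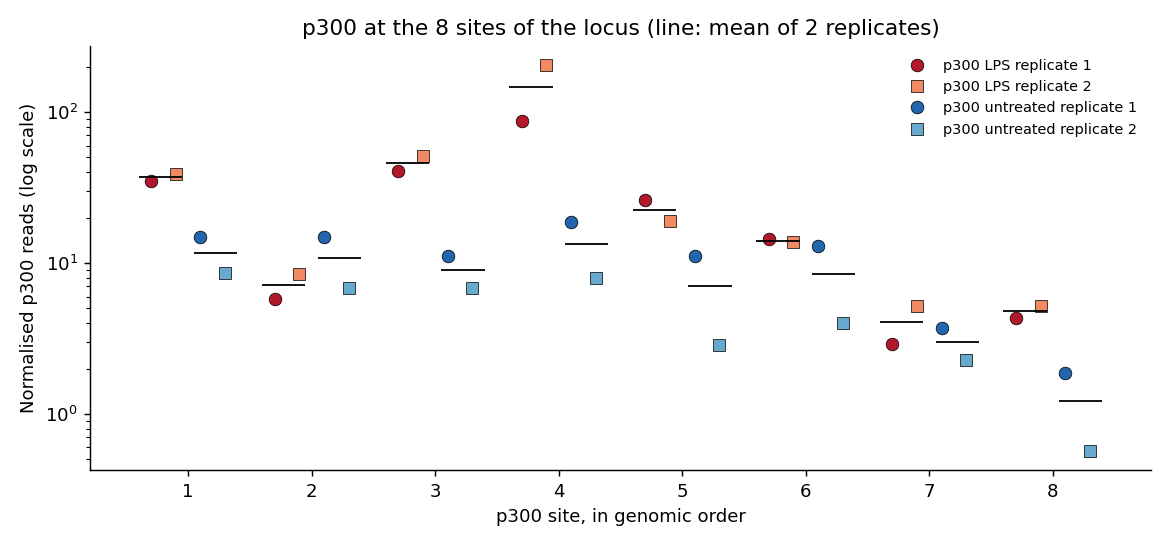
Normalised p300 reads (log axis) at the 8 sites in genomic order, each library as a point with LPS left of untreated and the mean of 2 replicates as a line. Both LPS points lie above both untreated points at 6 sites, and the groups overlap at sites 2 and 7.

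The fold of every site but site 2 was above 0 with all libraries, but at each site it was lowest without untreated replicate 2. The number of sites called rested on single libraries and on the scaling. With library sizes from total reads or from background bins the median log2 fold change was 1.92 and 1.94, beside 1.95. Without untreated replicate 2 the log2 fold changes of sites 1, 3, 4 and 5 were 1.07, 1.74, 2.50 and 0.75, those of sites 6 and 7 were -0.10 and -0.07, and 1 of the sites was called. Likewise 1 site was called without LPS replicate 1 and 1 without LPS replicate 2, and limma-trend called 2. With library sizes from total reads, or from background bins, limma voom called 0 sites here and 0 in the genome (1027 and 956 higher at an unadjusted p under 0.05), with log2 fold changes of 3.59 and 3.59 at site 4.

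**Figure D4:**
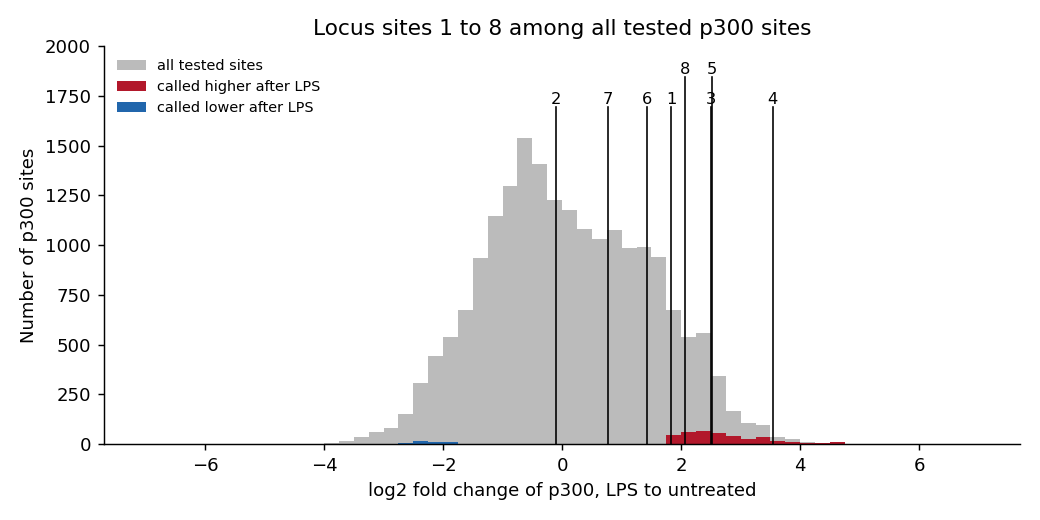
Histogram of the log2 fold change of p300, LPS to untreated, over 19727 tested sites, with called sites coloured and lines at locus sites 1 to 8. Site 4, at 3.54, lies in the upper tail, and site 2, at -0.11, near the middle.

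p300 peaks of the LPS list alone were also counted in fixed stretches of 60 kb over the genome. Of 43933 stretches, 37889 (86.2%) held none, and 8 held 7 or more, as the window did. The most in a single stretch was 18. The window was placed around the genes with earlier results known, and these peaks are its own members. Nothing particular to the locus is therefore read from this count. The whole window held 314 and 789 p300 reads after LPS, against 226 and 222 in untreated cells. The 8 p300 sites, 8.091 kb of the window, held 47.5% and 67.2% of its p300 reads in the LPS libraries, against 21.2% and 31.5% in the untreated ones. In the 41 bins of 1 kb without any peak there were 133 and 187 p300 reads after LPS, against 142 and 111 in untreated cells. Outside the window the nearest LPS p300 peak lay 57098 bp below its edge and the next 213184 bp above it, and the LPS p300 peaks closest to the edges were 11944 and 11209 bp inside.

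PU.1 was already present at the locus before LPS. Its peaks were called at 6 sites after LPS, 5 of which also had a peak in untreated cells. At 3 of 6 sites the exact 95% interval of the ratio of the 2 libraries, scaled by distinct reads, lay above 1 (6.38% of 85502 sites in the genome), and at 0 of 6 below 1 (8.5%). Each condition had 1 PU.1 library, so these intervals cover counting error only and compare libraries, not conditions. The median ratio of the 6 sites was 1.62, beside 0.961 over all sites (quartiles 0.712 and 1.29).

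PU.1 sites are numbered 1 to 6 in their own genomic order. The strongest was PU.1 site 4, from 115371735 to 115372460, inside p300 site 3. It had 252 reads after LPS, against 156 in untreated cells, a ratio of 1.55 (1.27 to 1.91). Its caller score after LPS, 1041.87, ranked 294 of 74365. PU.1 site 1, from 115347269 to 115348038 at the edge of the Oasl2 span, had 172 reads after LPS, against 98 in untreated cells, a ratio of 1.69 (1.31 to 2.18). Both lay where p300 was called higher. PU.1 site 2, from 115365719 to 115366254, was the only one with no untreated peak, and had 33 reads after LPS, against 9 in untreated cells, a ratio of 3.52 (1.65 to 8.37). It overlapped an H3K4me1 peak and no p300 peak, with 0 and 8 p300 reads after LPS, against 3 and 2 in untreated cells.

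PU.1 site 3, from 115366595 to 115367144, overlapped the untreated p300 peak of site 2. It had 83 PU.1 reads after LPS, against 104 in untreated cells, and its ratio of 0.767 had an interval from 0.568 to 1.03. At this place neither p300 nor PU.1 was higher after LPS beyond its error. PU.1 site 5, from 115384522 to 115385048, had 20 reads after LPS, against 9 in untreated cells (ratio 2.14, 0.929 to 5.33). PU.1 site 6, from 115392030 to 115392421 and above the Oasl1 span, had 10 reads after LPS, against 18 in untreated cells (0.534, 0.220 to 1.22). Both intervals included 1.

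**Figure D5:**
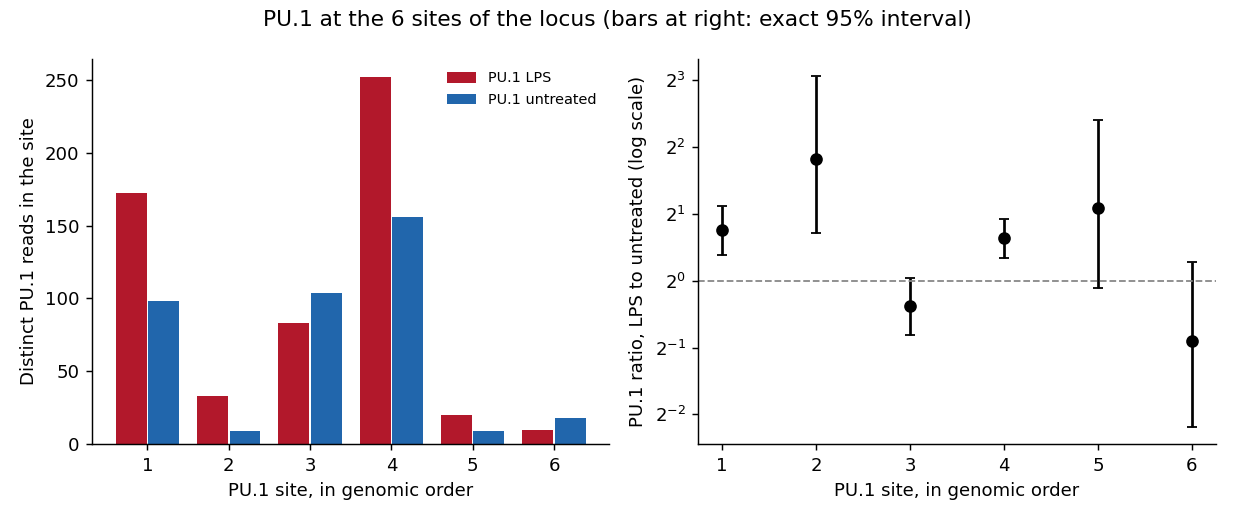
Distinct PU.1 reads at the 6 PU.1 sites in genomic order (left, LPS beside untreated) and their ratio, LPS to untreated, on a log axis with exact 95% intervals (right). The intervals of sites 1, 2 and 4 lie above 1, and those of sites 3, 5 and 6 include 1.

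PU.1 reads were more frequent after LPS at p300 sites where no PU.1 peak was called. p300 site 4 held 41 PU.1 reads after LPS, against 13 in untreated cells, a ratio of 3.03 (1.59 to 6.16). Its PU.1 summit after LPS, with 16 reads within 100 bp, lay 9 bp from the p300 summit. The 5 p300 sites without a PU.1 peak held 82 PU.1 reads together after LPS, against 20 in untreated cells, a ratio of 3.94 (2.39 to 6.78). All 5 were p300 peaks of the LPS list alone, and sites 7 and 8 added 9 of these 102 reads. The same sum over the 4716 such sites of the genome without a PU.1 peak gave a ratio of 1.58, and over all 9340 p300 sites without a PU.1 peak 1.13. All 5 lay in or at the edge of the Oasl1 span, whose reads outside all peaks had a similar ratio, 3.91 (2.15 to 7.60). The higher ratio was thus not shown to be particular to the p300 sites.

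PU.1 reads outside all peaks were also more frequent after LPS, beyond counting error in the Oasl1 span and between the spans. In the 9.614 kb of the Oasl1 span outside all peaks there were 57 PU.1 reads after LPS, against 14 in untreated cells, a ratio of 3.91 (2.15 to 7.60). In the matching part of the Oasl2 span there were 36 reads after LPS, against 21 in untreated cells, a ratio of 1.65 (0.936 to 2.97). Between the spans there were 30 reads outside all peaks after LPS, against 11 in untreated cells, a ratio of 2.62 (1.28 to 5.80). Upstream of Oasl2 the ratio was 1.44 (0.657 to 3.28), and downstream of Oasl1 it was 1.11 (0.492 to 2.53). The intervals of these parts overlapped each other, so the ratio was not shown to be particular to the Oasl1 span. The window's 1 kb bins without a peak together had a ratio of 1.94 (1.38 to 2.76), and bins of 10 kb without a peak across the genome 1.10. p300 in the Oasl1 span outside all peaks had 40 and 58 reads after LPS, against 34 and 39 in untreated cells. In normalised reads these were 58.0 and 37.8 after LPS and 63.2 and 22.2 in untreated cells, and the libraries overlapped.

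H3K4me1, measured in untreated cells, marked the window before LPS at 7 peaks. Of these 3 overlapped an LPS p300 peak (those of sites 1, 3 and 5) and 1 the untreated p300 peak. The H3K4me1 peak with the most reads, from 115366367 to 115367176, overlapped p300 site 2 and had 46 reads, beside 4 in input. The next, from 115371292 to 115372107 at p300 site 3, had 33 reads, beside 5 in input. Over all 7 peaks there were 147 reads, beside 22 in input, a log2 ratio of 2.68 (2.08 to 3.45). The median of the peaks, 2.49, was close to the 2.51 of all H3K4me1 peaks in the genome.

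The other H3K4me1 peaks were weaker. In the Oasl2 span the peak from 115346807 to 115347443, over p300 site 1, had 23 reads, beside 6 in input. The peak from 115348841 to 115349337 had 14, beside 2 in input, and coincided with 31 PU.1 reads after LPS and 22 in untreated cells although no PU.1 peak was called there. On either side of the strongest peak, those from 115365825 to 115366149 and from 115367291 to 115367602 had 8 reads each, beside 0 in input. The peak from 115376367 to 115376978, over p300 site 5, had 15 reads, beside 5 in input, and was the only one inside the Oasl1 span.

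p300 site 4 carried no H3K4me1 peak. It had 24 H3K4me1 reads, beside 18 in input, a depth-scaled ratio of 1.32 (exact interval 0.689 to 2.59), and at its highest p300 bin there were 0 H3K4me1 reads. The nearest H3K4me1 peaks lay 392 bp below the site and 1337 bp above it, and the nearest PU.1 site 39 bp below it. Site 3 next to it had 43 H3K4me1 reads, beside 10 in input, a ratio of 4.27 (2.11 to 9.53). The strongest p300 site after LPS lay beside, not on, the PU.1 and H3K4me1 peaks of the untreated cells.

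Of the 7 LPS p300 peaks, 2 overlapped a PU.1 peak of the LPS cells, 2 a PU.1 peak of the untreated cells and 3 an H3K4me1 peak. Over all 12237 LPS p300 peaks these shares were 54.3%, 50.9% and 50.7%. Neither PU.1 nor H3K4me1 was called at 4 of the 7, those of sites 4, 6, 7 and 8, against 35.3% of all LPS p300 peaks. With 7 peaks, all of 1 locus and neighbours of each other, no test of these shares was made.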

How the data were processed

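The authors deposited positions of aligned 36 bp reads and peak lists on build mm9, per the submitters' processing notes. The sources used here name no aligner and no caller settings. Each deposited peak has the authors' caller score, 10 times the -log10 p-value. Per the file headers, the control was "naked" for p300, "random" for PU.1 (the untreated list's header names LPS) and input for H3K4me1. The p300 lists pool both replicates, per the series' design text, and replicate numbers come from the names of the read files.

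On chromosomes 1 to 19 and X, reads sharing a position and strand were kept once, 5′ ends were moved 100 bp, and reads were counted in merged peaks (overlap of at least 1 bp). All p300 sites with at least 10 reads were fitted with limma voom (limma 3.58.1, R 4.3.3; median-of-ratios scaling, no term other than treatment, Benjamini-Hochberg at 0.05). Ratios of single libraries were scaled by distinct reads, with exact 95% intervals for counting error only. H3K4me1 log2 ratios, of single peaks and of the sum over the peaks, had 1 read added to each library after depth scaling. The interval of the sum was computed without the added read. Overlaps, merging and counting were tested on simulated intervals and reads. limma voom was tested on simulated counts whose replicates differed by library size and counting error only. The latter does not show how the calls behave with the replicate differences seen here. Every p300, PU.1 and H3K4me1 site of the window is named, as there were 10 or fewer of each. The members, lists and motifs were chosen with earlier results of these data known.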

Additional observations from a re-analysis of the deposited data

How the results depend on the processing

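Over the genome limma voom called 388 p300 sites higher and 42 lower after LPS. With total distinct reads as library size it called 0 and 0 (1027 higher and 467 lower at an unadjusted p under 0.05), and with background bins 0 and 0 (956 and 493). All reads kept gave 76 lower calls. The replicate number as a block, though nothing in the labels says that the numbers pair the samples, gave 896 higher and 395 lower. Leaving out a library in turn gave 33 to 488 higher and 0 to 695 lower (0 without LPS replicate 1 or 2, with 288 and 20 lower at an unadjusted p under 0.05).

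At the locus 4 of 8 p300 sites were called, against 0 with total reads, 0 with background bins, 2 with limma-trend and 1 to 4 without a library, while the replicate block kept 4. The median log2 fold change of 1.95 stayed above 0 under every alternative and was 0.77 to 2.29 without a library. Without a library a condition's lone p300 sample is assumed to vary like the other condition, and sites 7 and 8 fell under 10 reads without LPS replicate 2. Where computed, the sites' own folds stayed above 0 at sites 1, 3, 4, 5 and 8. The PU.1 ratio summed over the 6 sites, 1.39, was 1.71 with all reads kept. Of the LPS p300 peaks, 3 overlapped an H3K4me1 peak. With a score of at least 100 required in both lists, 4 LPS p300 peaks were left and 1 overlapped an H3K4me1 peak. The H3K4me1 peaks at p300 sites 1 and 5, with scores of 63.62 and 55.27, fell under this cut-off, while the p300 peaks there did not. H3K4me1 over input changed by less than its interval in each setting. The causes of the other changes were not tested. Depth limits sites 7 and 8, with 1 to 8 reads a library.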
